A study of Capra hircus with 13 samples.

Results

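The genes described here are the subunits, assembly chaperones and activators of the goat proteasome. Their members are the gene names that begin with PSM, a letter from A to G and a digit, and 49 names fit this pattern, 48 of them among the 18159 names shared by the untreated tables and 49 among the 27121 names of the injected tables. One of the 49, PSMC3IP, encodes a meiotic recombination factor and not a proteasome protein, which leaves 48 proteasome genes. They fall into 7 constitutive alpha and 7 constitutive beta subunits of the 20S core, 5 tissue-restricted core subunits, 6 ATPase and 11 non-ATPase subunits of the 19S particle, 3 chaperones of 19S assembly, 4 chaperones of 20S assembly, and 5 activators and inhibitors. PSMB11 is listed in the injected tables alone.

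Gene expression was measured by Smart-seq2 RNA-seq in 13 libraries of Capra hircus. Untreated material gave 3 libraries each of mature oocytes (MII, arrested in metaphase of the second meiotic division), 4-cell embryos and 8-cell embryos made by in vitro fertilization (IVF). Injected material gave 2 libraries each of 8-cell embryos that had received YTHDF2 siRNA or a universal negative control siRNA (NC) as zygotes 8 h after IVF. YTHDF2 is a reader of N6-methyladenosine that directs marked mRNAs to decay, and the comparisons ask how transcripts change from oocyte to embryo and how they change when YTHDF2 is depleted. Each injected library was a pool of 15 embryos, the siRNAs were used at 20 µM, and the NC embryos, which the labels also call WT, were injected embryos. The untreated reads were taken over from 2 earlier studies, without saying which library belongs to which, so stage and study cannot be told apart. Whether replicates were separate collections of embryos is not given, so p-values measure the spread between these libraries, which may be technical. In bulk libraries fewer cells of a type and less RNA per cell cannot be told apart.

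The proteasome degrades proteins tagged with ubiquitin. Its 20S core is a barrel in which outer rings of alpha subunits control entry and inner rings of beta subunits hold the proteolytic sites. The 19S regulatory particle caps the barrel, binds and removes ubiquitin chains, and unfolds the substrate with a ring of ATPases, and chaperones guide the assembly of both. In oocytes and cleavage embryos this system removes cyclins at the exit from meiosis and clears maternal proteins while the embryonic genome is activated.

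The knockdown used a mixture of siRNAs, and the sense strands of both are shown because they set the YTHDF2 siRNA embryos apart from NC by design. Capitals mark the overhang at the 3′ end.
s28148: gggcugauauugcuagcaaTT
s28147: gcaugaauacuauagaccaTT

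Their target was depleted: YTHDF2 stood at 112 and 159 FPKM (fragments per kilobase of exon, scaled to the mapped fragments of a library) in NC and at 8.07 and 4.47 FPKM in YTHDF2 siRNA embryos, a log2 fold change of -4.25 ± 0.43 (SE, adjusted p = 3.7e-04, limma). The untreated libraries held 26853876 to 42495116 fragments, and the depth of the injected libraries is unknown. The listed genes took 64.8 to 66.3% of the fragments in MII libraries and 94.7 to 97.0% in embryo libraries. Replicates correlated at 0.921 to 0.986 over all genes and at 0.866 to 0.984 over the members, with the lowest values among 8-cell libraries. At least 7 of 8 oocyte markers reached 1 FPKM in every group, and the markers of cumulus and granulosa cells summed to 32.4 to 151 FPKM per library, against 487 to 3474 FPKM for the oocyte markers. White blood cell markers summed to 3.95 FPKM or less.

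In MII oocytes proteasome transcripts were present at very unequal levels. All levels given for single genes are FPKM, a value per length of the gene, and means are given ± SD over n = 3 libraries per stage and n = 2 per injected group. PSMA5, an alpha subunit, was the most abundant member in MII, at 1066, 972 and 1303 FPKM, and ranked 16th among all shared genes by its mean. PSMA4, another alpha subunit, stood at 592, 531 and 628 FPKM and ranked 43rd. The libraries of these genes did not overlap with each other or with those of PSMA7, the next in order at 139.8, 178 and 65.9 FPKM. From PSMA7 down to PSMC3, each member overlapped with the next in order.

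The member with the lowest mean at every stage was PSMB10, an inducible catalytic subunit of the immunoproteasome, at 0.0726 to 0.263 FPKM, which rested on 2 to 8 fragments per library. It overlapped with PSMC3 at the 8-cell stage, and in 8-cell library 3 PSMC3 (0.0211 FPKM, 1 fragment) and PSMB6 (0.155 FPKM) lay below it. In 4-cell embryos PSMA5 (1053, 984 and 1484 FPKM) and PSMA4 (1222, 872 and 1052 FPKM) were again on top and overlapped with each other. In 8-cell embryos PSMA4 (369, 591 and 627 FPKM) had the highest mean and PSMA5 (329, 371 and 358 FPKM) the next, with overlap. PSMA6, an alpha subunit, led in NC embryos at 538 and 870.5 FPKM, with both libraries above those of every other member, and in YTHDF2 siRNA embryos PSMA5 led at 312 and 693 FPKM and overlapped with PSMA6 (447 and 381 FPKM). PSMB11, the catalytic subunit of the thymus proteasome, was listed at 0 in all 4 injected libraries.

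**Figure D1:**
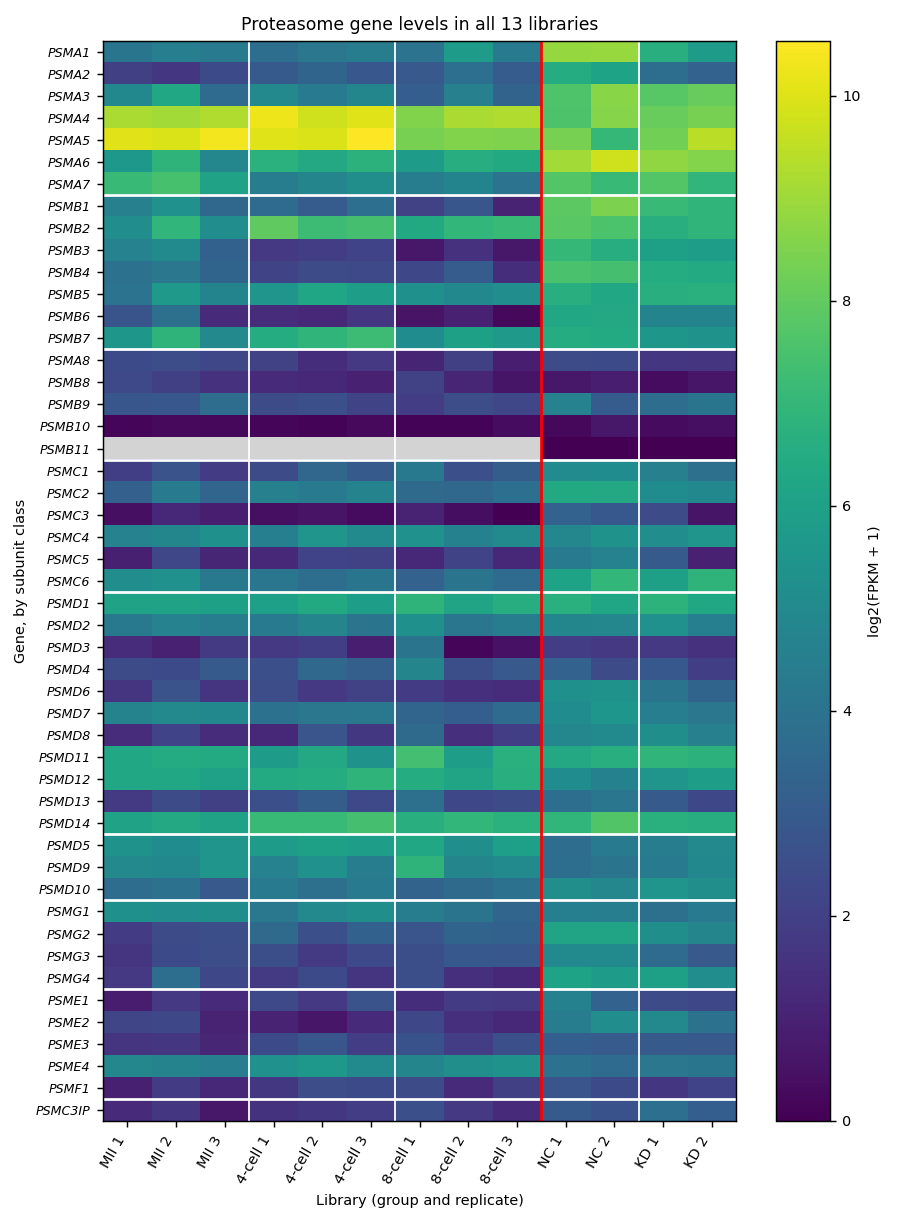
Levels of the 49 pattern members in the 13 libraries as log2(FPKM + 1), grouped by subunit class, with grey where a gene is not listed and a red line between the separately normalized untreated and injected libraries. PSMA4 and PSMA5 stand out in the untreated libraries, and most other core genes are brighter in the NC libraries.

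The 14 constitutive core subunits, which enter the same particle in equal copies, differed most in untreated material. Their highest level was 359 to 958 times the lowest within an MII library, 669 to 784 times within a 4-cell library and 626 to 4035 times within an 8-cell library. In NC libraries the highest was 6.75 and 12.6 times the lowest, and in YTHDF2 siRNA libraries 34.8 and 77.1 times. The SD of log2(FPKM + 1) over the 14 genes was 2.14 to 2.90 in the 9 untreated libraries, 0.87 and 1.17 in NC and 1.40 and 1.62 in YTHDF2 siRNA libraries. The leading pair of genes took 65.7 to 88.5% of the summed core FPKM in MII, 78.4 to 81.0% at the 4-cell and 68.4 to 73.1% at the 8-cell stage, against 32.6 and 38.2% in NC. The summed core level was 2059 to 2287 FPKM in MII, 2369 to 3133 FPKM in 4-cell and 967 to 1407 FPKM in 8-cell libraries. The 8-cell sums thus lay below those of both earlier stages. PSMA5 and PSMA4 were the leading pair in every untreated library and weigh most in these sums. The median core level overlapped between stages, at 22.9 to 65.5 FPKM in MII, 23.3 to 31.8 FPKM at 4 cells and 17.5 to 27.6 FPKM at 8 cells. Injected tables were normalized apart from untreated ones, and no test was made across them.

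**Figure D2:**
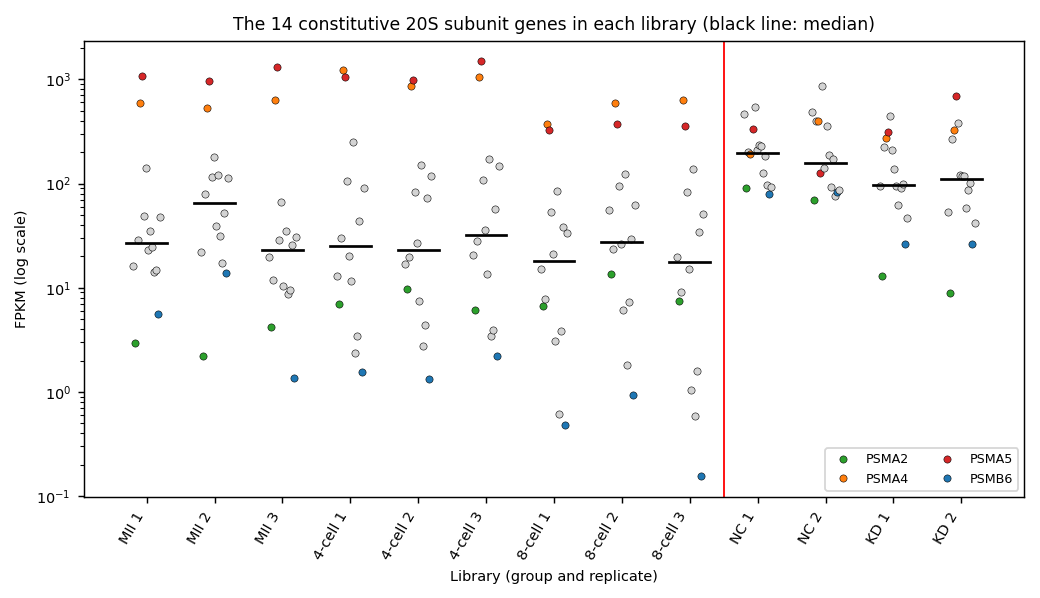
FPKM of the 14 constitutive 20S genes in each library on a log scale, with the median as a black line and PSMA2, PSMA4, PSMA5 and PSMB6 in colour. The genes spread over 359-fold or more in every untreated library and over 6.75-fold and 12.6-fold in the NC libraries.

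From MII to the cleavage stages core subunits were called in both directions, and several beta subunits fell. A gene was called when its unadjusted p in limma was under 0.05 and it differed by more than 2-fold, the thresholds of the study, with log2 fold changes given ± SE, and 46 members passed the minimum of 1 FPKM on average (not PSMC3 and PSMB10). At the 4-cell stage 5 of 46 members (10.9%) were higher than in MII, against 16.7% of the 9090 genes tested, and 3 (6.52%) were lower, against 6.06% of all genes. At the 8-cell stage 3 members (6.52%) were higher than in MII, against 19.8% of all genes, and 10 (21.7%) were lower, against 8.14%. Between 8-cell and 4-cell embryos 0 members were higher, against 4.55% of all genes, and 4 (8.7%) were lower, against 4.28%. The stage comparisons share their libraries and are not independent of each other. Where a call is given below as lost with a change still over 2-fold, its unadjusted p had risen to 0.05 or more. Leaving out a library also lowers the power of the fit. With an adjusted p under 0.05 and over 2-fold change, 3 members were higher and 3 lower at the 4-cell stage (15.4 and 5.09% of all genes), 1 higher and 10 lower at the 8-cell stage (18.5 and 7.58%), and 0 higher and 2 lower between embryo stages (2.29 and 3.17%). With an adjusted p under 0.05 and any fold, 5 and 4 members were higher and lower at the 4-cell stage (24.7 and 6.42% of all genes), 3 and 11 at the 8-cell stage (27.3 and 10%), and 0 and 2 between embryo stages (3.06 and 5.24%). At an unadjusted p under 0.05 with any fold, 0 members were higher between 8-cell and 4-cell embryos, against 10.8% of all genes, and 9 were lower, against 13.5%, and limma voom on recovered fragments also called 0 higher.

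Over the members the median log2 fold change from MII was 0.15 for 4-cell and 0.19 for 8-cell embryos, where the median of all tested genes was 0.29 and 0.37, and -0.17 between the 8-cell and 4-cell stages, against 0.07 for all genes. The medians and counts against MII depended on scale, for the members and for all genes. When libraries were rescaled by median ratios, the median of the members turned to -0.06 and -0.15, and that of all genes came to 0.06 and 0.05. With equal summed FPKM they were -0.22 and -0.20 for the members and -0.14 and 0.02 for all genes. Under median ratios 1 member was called higher and 10 lower at the 4-cell stage, against 10.4 and 10.1% of all genes, and 0 higher and 13 lower at the 8-cell stage, against 12.6 and 13%. When summed FPKM was made equal, 4-cell embryos had 1 member called higher and 12 lower, against 6.74 and 12.9% of all genes, and 8-cell embryos 0 and 13, against 11.6 and 13.3%. The 3 calls of lower level at the 4-cell stage and the 10 at the 8-cell stage were kept under both rescalings, whereas PSMB2 was the single call of higher level against MII that both kept.

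Libraries of a stage did not overlap with MII for 10 members that lay above at the 4-cell stage, against 37.8% of all genes, and for 8 that lay below, against 14.1%. At the 8-cell stage 6 members lay above without overlap, against 36.4%, and 11 lay below, against 13.7%. Between 8-cell and 4-cell libraries 0 members lay above without overlap, against 11.6% of genes, and 11 lay below, against 16.6%. Overlap, here and for single genes, was judged on the deposited scale alone and not under the rescalings. Against MII it may therefore depend on scale as the calls do. Of the marker lists, GDF9 at the 4-cell and KIT at the 8-cell stage were called higher than in MII among 8 oocyte markers tested, and LUM at both stages and HAS2 at the 8-cell stage among 4 markers of cumulus and granulosa cells, while AMH was at 0 in all untreated libraries. Under both rescalings the calls of GDF9 (0.81 and 0.57), KIT (0.86 and 0.82) and HAS2 (0.96 and 0.92) were lost, and those of LUM were kept. Leaving out MII library 1 or 3 ended the call of GDF9 (0.97 and 0.92), and MII library 3 that of KIT (0.92). Their part in the stage results was not tested.

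**Figure D3:**
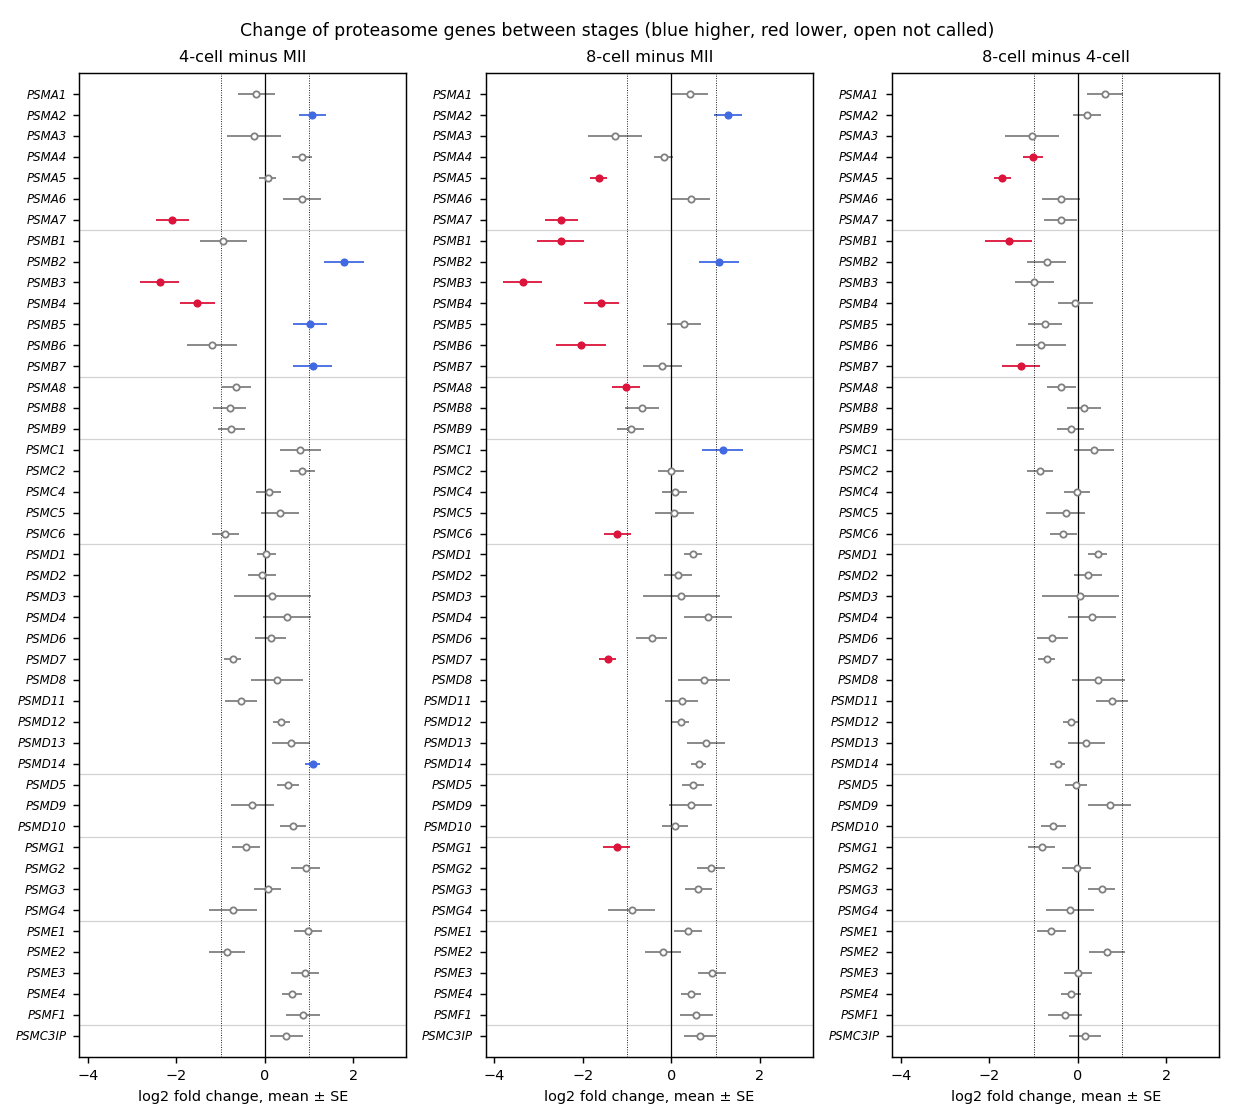
Log2 fold change ± SE of the 46 tested members in each stage comparison, from limma on log2(FPKM + 1), with filled points for called genes and dotted lines at 2-fold. At the 4-cell stage against MII and between embryo stages all calls of lower level are alpha or beta core genes. At the 8-cell stage against MII they are 2 alpha and 4 beta genes beside PSMA8, PSMC6, PSMD7 and PSMG1. The classes were not tested against each other. Of the calls of higher level against MII, PSMB2 at the 4-cell stage was kept under both rescalings.

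Among the alpha subunits, 1 of 7 was called higher and 1 lower at the 4-cell stage, and 1 higher and 2 lower at the 8-cell stage, each against MII. PSMA5 stood at 1066, 972 and 1303 FPKM in MII, 1053, 984 and 1484 FPKM at 4 cells and 329, 371 and 358 FPKM at 8 cells. Every 8-cell library lay below every earlier one. PSMA5 fell against MII (log2 fold change -1.65 ± 0.19, adjusted p = 2.6e-04) as well as relative to 4-cell embryos (-1.71 ± 0.19, adjusted p = 0.0029).

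PSMA4 was at 584 ± 49.1 FPKM in MII, 1049 ± 175 FPKM at 4 cells and 529 ± 139.6 FPKM at 8 cells. Its 4-cell libraries lay above all others, and it fell from the 4-cell to the 8-cell stage by the narrowest margin, with a log2 fold change of -1.01 ± 0.22 (adjusted p = 0.026). That call was lost with equal summed FPKM (-0.90) and without 4-cell library 1 (-0.89) or 8-cell library 1 (-0.77).

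PSMA7, an alpha subunit, stood at 139.8, 178 and 65.9 FPKM in MII, 20.3, 26.6 and 35.8 FPKM at 4 cells and 20.9, 26.2 and 15.1 FPKM at 8 cells. All embryo libraries lay below all MII libraries. PSMA7 fell in 4-cell embryos (log2 fold change -2.10 ± 0.37, adjusted p = 0.0030), as it did in 8-cell embryos (-2.49 ± 0.37, adjusted p = 9.4e-04), and between these stages the difference was -0.39 ± 0.37 (adjusted p = 0.54).

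PSMA2, whose level was the lowest of the alpha subunits at each stage, went the other way, with 2.97, 2.19 and 4.20 FPKM in MII, 6.99, 9.65 and 6.18 FPKM at 4 cells and 6.73, 13.6 and 7.40 FPKM at 8 cells. Its embryo libraries all lay above MII. PSMA2 rose in 4-cell embryos (log2 fold change 1.07 ± 0.31, adjusted p = 0.027), as it did in 8-cell embryos (1.28 ± 0.31, adjusted p = 0.010). Relative to the median of all genes these were 0.79 and 0.92, and the calls were lost under both rescalings, at the 4-cell stage also without MII library 2 (0.90) or 4-cell library 2 (0.91), and at the 8-cell stage without 8-cell library 2 (1.0). PSMA1, PSMA3 and PSMA6 were called in no stage comparison, although 5 of 15 alternatives called PSMA3 lower at the 8-cell stage against MII (-1.28 to -1.92) and 2 did between embryo stages (-1.03 and -1.49). PSMA6 was called higher in 4-cell embryos without MII library 2 (1.36).

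Among the beta subunits, 3 of 7 were called higher and 2 lower at the 4-cell stage, and 1 higher and 4 lower at the 8-cell stage, each against MII. Between the 8-cell and 4-cell stages 7 of 7 had a log2 fold change below 0, and 2 were called. The median log2 fold change of the 7 from MII was -0.94 for 4-cell and -1.59 for 8-cell embryos, and -0.84 between the embryo stages.

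PSMB3, a structural subunit without a proteolytic site, stood at 24.3, 31.4 and 8.68 FPKM in MII, 2.37, 2.78 and 3.40 FPKM at 4 cells and 0.616, 1.82 and 0.593 FPKM at 8 cells. Its groups did not overlap at any step. PSMB3 fell in 4-cell embryos (log2 fold change -2.38 ± 0.44, adjusted p = 0.0035), and again in 8-cell embryos, where it had the lowest log2 fold change of all members (-3.37 ± 0.44, adjusted p = 4.6e-04). Between embryo stages it was called lower with a pseudocount of 0.1 (-1.57) and without 8-cell library 2 (-1.25).

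PSMB4, also structural, was at 14.2, 17.2 and 9.43 FPKM in MII, 3.45, 4.40 and 3.97 FPKM at 4 cells and 3.88, 7.30 and 1.60 FPKM at 8 cells. The embryo libraries lay below MII and overlapped with each other. It fell in 4-cell embryos (log2 fold change -1.53 ± 0.40, adjusted p = 0.017), as it did in 8-cell embryos (-1.59 ± 0.40, adjusted p = 0.012).

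PSMB1, a structural subunit as well, was at 22.9, 39.1 and 10.4 FPKM in MII, 11.7, 7.42 and 13.4 FPKM at 4 cells and 3.09, 6.14 and 1.04 FPKM at 8 cells. The 8-cell libraries lay below all others, while 4-cell and MII libraries overlapped. In 4-cell embryos PSMB1 differed from MII by -0.94 ± 0.53 (adjusted p = 0.21), which was called lower under both rescalings (-1.22 and -1.45) and without MII library 3 (-1.42). PSMB1 fell at the 8-cell stage against MII (log2 fold change -2.51 ± 0.53, adjusted p = 0.0055). Its call against the 4-cell stage (-1.56 ± 0.53) did not hold after adjustment (adjusted p = 0.11) and was lost without 4-cell library 3 (-1.40) or 8-cell library 3 (-1.10).

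Of the 3 catalytic beta subunits, PSMB5 and PSMB7 were called higher at the 4-cell stage and PSMB6 lower at the 8-cell stage, each against MII, and their differences from each other were not tested. PSMB6, which carries the caspase-like site, was at 5.62, 13.9 and 1.36 FPKM in MII, 1.56, 1.32 and 2.22 FPKM at 4 cells and 0.478, 0.943 and 0.155 FPKM at 8 cells, on 4 to 415 fragments per library. The 8-cell libraries lay below all others, and 4-cell libraries overlapped with MII. PSMB6 fell at the 8-cell stage (log2 fold change -2.04 ± 0.56, adjusted p = 0.018) and differed by -1.20 ± 0.56 at the 4-cell stage (adjusted p = 0.14), which both rescalings (-1.41 and -1.60) and leaving out MII library 3 (-1.89) turned into a call.

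PSMB5, which carries the chymotrypsin-like site, was at 14.9, 51.6 and 26.0 FPKM in MII, 44.1, 72.8 and 56.6 FPKM at 4 cells and 38.2, 29.1 and 34.4 FPKM at 8 cells. The 4-cell libraries overlapped with MII through MII library 2 and lay above all 8-cell libraries. The 4-cell difference from MII (1.03 ± 0.38) passed the unadjusted rule and not the adjusted one (adjusted p = 0.069), and the call was lost under both rescalings (0.74 and 0.50) and without MII library 1 (0.61), MII library 3 (0.99), 4-cell library 2 (0.85) or 4-cell library 3 (1.03).

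PSMB7, which carries the trypsin-like site, was at 47.4, 113 and 30.5 FPKM in MII, 90.9, 119 and 148 FPKM at 4 cells and 33.5, 62.2 and 51.4 FPKM at 8 cells. Its 4-cell libraries overlapped with MII through MII library 2 and lay above all 8-cell libraries. The call of higher level at the 4-cell stage (1.08 ± 0.43, adjusted p = 0.088) was lost under both rescalings (0.78 and 0.55) and without MII library 1 (0.97), MII library 3 (0.66), 4-cell library 2 (1.07) or 4-cell library 3 (0.91). The call of lower level from 4 to 8 cells (-1.28 ± 0.43, adjusted p = 0.11) was lost without 4-cell library 3 (-1.11).

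PSMB2, a structural subunit, was at 35.1, 119.9 and 35.3 FPKM in MII, 249.9, 149.8 and 171 FPKM at 4 cells and 84.3, 124 and 139 FPKM at 8 cells. Its 4-cell libraries lay above all others, and the 8-cell libraries overlapped with MII through MII library 2. PSMB2 rose at the 4-cell stage (log2 fold change 1.79 ± 0.45, adjusted p = 0.014), which was 1.5 above the median of all genes. At the 8-cell stage its difference from MII was 1.08 ± 0.45 (adjusted p = 0.085), a call lost under both rescalings (0.71 and 0.66) and without any 1 of 5 libraries (0.79 to 1.08): MII library 1 or 3, 4-cell library 3 and 8-cell library 2 or 3.

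Of the tissue-restricted core subunits, PSMA8 and PSMB8 lay below their constitutive counterparts in every untreated library, and PSMB9 did not. PSMA8, which replaces PSMA7 in the proteasome of male germ cells, was at 4.12, 4.61 and 3.68 FPKM in MII, 3.07, 1.57 and 2.32 FPKM at 4 cells and 1.16, 3.04 and 0.833 FPKM at 8 cells. All embryo libraries lay below MII, and PSMA8 fell at the 8-cell stage (log2 fold change -1.02 ± 0.33, adjusted p = 0.034), a call lost without MII library 2 (-0.96), 8-cell library 1 (-0.91) or 8-cell library 3 (-0.80). With equal summed FPKM it was called lower in 4-cell embryos too (-1.07).

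PSMB8, the inducible counterpart of PSMB5, was at 3.95, 3.05 and 1.86 FPKM in MII, 1.43, 1.31 and 0.941 FPKM at 4 cells and 3.28, 1.18 and 0.534 FPKM at 8 cells. Its 4-cell libraries lay below MII. Against MII it differed by -0.80 ± 0.38 (adjusted p = 0.14) in 4-cell embryos, and by -0.67 ± 0.38 (adjusted p = 0.20) in 8-cell embryos. It was called lower at the 4-cell stage under both rescalings (-1.0 and -1.16) and without MII library 3 (-1.01), and at the 8-cell stage without 8-cell library 1 (-1.08).

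PSMB9, the inducible counterpart of PSMB6, was at 6.01, 6.22 and 12.8 FPKM in MII, 4.46, 4.91 and 3.46 FPKM at 4 cells and 2.81, 4.62 and 3.79 FPKM at 8 cells. Unlike the other inducible subunits it lay above its constitutive partner PSMB6 in all 3 4-cell and all 3 8-cell libraries, and in 2 of 3 MII libraries. Its embryo libraries lay below MII, with differences of -0.76 ± 0.30 (adjusted p = 0.087) and -0.92 ± 0.30 (adjusted p = 0.039) that did not reach 2-fold on the log2(FPKM + 1) scale. Both rescalings called it lower at the 4-cell stage (-1.02 and -1.22), and 7 of 15 alternatives did at the 8-cell stage (-1.05 to -1.29), which were a pseudocount of 0.1, both rescalings, voom, and without MII library 1, MII library 2 or 8-cell library 2. PSMB10, the counterpart of PSMB7, was too low to test.

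Of the 19S ATPases, 0 of 5 tested were called at the 4-cell stage, and 1 was called higher and 1 lower at the 8-cell stage against MII. PSMC6 was at 34.7, 39.4 and 18.1 FPKM in MII, 16.5, 13.2 and 16.3 FPKM at 4 cells and 9.04, 15.5 and 12 FPKM at 8 cells. Its embryo libraries lay below MII, and it fell at the 8-cell stage (log2 fold change -1.23 ± 0.30, adjusted p = 0.012). At the 4-cell stage both rescalings (-1.18 and -1.41) and leaving out MII library 3 (-1.22) gave a call of lower level.

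PSMC1 was at 2.83, 5.44 and 2.57 FPKM in MII, 4.28, 10.1 and 6.91 FPKM at 4 cells and 18.3, 4.88 and 7.65 FPKM at 8 cells. Its 8-cell libraries overlapped with MII, and its call (1.16 ± 0.46, adjusted p = 0.074) was lost under both rescalings (0.84 and 0.82), with a replicate block (adjusted p = 0.12), and without 8-cell library 1 (0.68), MII library 1 (1.05) or MII library 3 (1.0). PSMC3, untested here, was the lowest of the ATPases, on 1 to 72 fragments per library. PSMC2, PSMC4 and PSMC5 were not called at the 8-cell stage against MII, and the log2 fold change was 0.07 for PSMC4 and 0.07 for PSMC5. PSMC2 was called higher in 4-cell embryos without MII library 2 (1.20).

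Among the 11 non-ATPase subunits, 1 was called higher at the 4-cell stage and 1 lower at the 8-cell stage, each against MII, and the other 9 were called in no stage comparison. Some of the 9 gained calls in alternatives. PSMD3, a lid subunit, was at 15.5, 0.150 and 0.437 FPKM in 8-cell libraries, so that library 1 lay far above the others, and its log2 fold changes of 0.23 against MII and 0.06 against 4-cell embryos turned to calls of lower level without it (-1.0, adjusted p = 0.0496, and -1.17, adjusted p = 0.088). PSMD11 was called lower in 4-cell embryos with equal summed FPKM (-1.08) and higher between embryo stages without 4-cell library 2 (1.02) or 8-cell library 2 (1.18), and PSMD4 (1.27) and PSMD13 (1.07) were called higher in 8-cell embryos against MII without 8-cell library 2. PSMD14, the deubiquitinase that removes ubiquitin chains from substrates, was at 65.6, 81.2 and 65.8 FPKM in MII, 138, 141 and 173 FPKM at 4 cells and 98.3, 124 and 106 FPKM at 8 cells. The groups did not overlap, and PSMD14 rose at the 4-cell stage (log2 fold change 1.08 ± 0.17, adjusted p = 0.0016). Relative to the median of all genes this was 0.79, and the call was lost under both rescalings (0.78 and 0.54) and without 4-cell library 3 (0.97).

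PSMD7, the lid subunit that pairs with PSMD14, was at 25.4, 30.4 and 28.8 FPKM in MII, 14.8, 17.1 and 17.9 FPKM at 4 cells and 9.78, 7.94 and 12 FPKM at 8 cells. The stages did not overlap. PSMD7 fell at the 8-cell stage (log2 fold change -1.44 ± 0.19, adjusted p = 5.6e-04), and its 4-cell difference of -0.73 ± 0.19 had an adjusted p of 0.019 and did not reach 2-fold, but was called under both rescalings (-1.02 and -1.25). PSMD1 and PSMD2, the large scaffold subunits of the base, stood at 65.5 ± 1.92 and 21.2 ± 3.15 FPKM in MII and 93.6 ± 22.1 and 25.1 ± 11.7 FPKM at 8 cells, without a call.

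Of the 20S assembly chaperones, PSMG1 was called at 1 step and PSMG2, PSMG3 and PSMG4 at 0 steps. Against MII, 4 of 15 alternatives called PSMG2 higher in 4-cell embryos (1.05 to 1.21) and 4 in 8-cell embryos (1.03 to 1.08), and 4 of 15, among them both rescalings (-1.20 and -1.24), called PSMG4 lower in 8-cell embryos. PSMG1, which pairs with PSMG2 to build alpha rings, was at 37.8, 34.5 and 37.0 FPKM in MII, 17.5, 30.2 and 36.7 FPKM at 4 cells and 20.8, 15.8 and 9.89 FPKM at 8 cells. Its 8-cell libraries lay below MII and overlapped with the 4-cell stage through 4-cell library 1. It fell at the 8-cell stage against MII (log2 fold change -1.24 ± 0.31, adjusted p = 0.012), and without 8-cell library 3 the value was -0.97, below 2-fold. Between embryo stages PSMG1 was called lower without 4-cell library 1 (-1.11) or 8-cell library 1 (-1.05). The 19S assembly chaperones PSMD5, PSMD9 and PSMD10 had log2 fold changes of 0.08 to 0.48 at the 8-cell stage against MII, and 0 of 3 were called at any stage.

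The activators and the inhibitor were called in no stage comparison. PSME4, a large nuclear cap that opens the core without ATP, was the most abundant of them at 28.4, 25.2 and 21.7 FPKM in MII, 38.9, 47.5 and 31.2 FPKM at 4 cells and 27.0, 36.0 and 41.9 FPKM at 8 cells, with a difference of 0.61 ± 0.22 (adjusted p = 0.065) at the 4-cell stage, where its libraries lay above MII. PSME1, which forms the interferon-inducible cap with PSME2, was at 0.803, 2.34 and 1.38 FPKM in MII, 4.01, 2.38 and 5.47 FPKM at 4 cells and 1.63, 2.58 and 2.34 FPKM at 8 cells, and its 4-cell libraries, all above MII, differed by 0.98 ± 0.32 (adjusted p = 0.045), under 2-fold on the log2(FPKM + 1) scale. PSME1 was called higher there in 4 of 15 alternatives (1.21 to 1.44), which were a pseudocount of 0.1, voom, and without MII library 2 or 4-cell library 2. Its partner PSME2 was at 3.54, 3.84 and 1.09 FPKM in MII, 1.01, 0.551 and 1.48 FPKM at 4 cells and 3.89, 1.74 and 1.29 FPKM at 8 cells, with overlap and a 4-cell difference of -0.86 ± 0.41 (adjusted p = 0.14), called under both rescalings (-1.03 and -1.20) and without MII library 3 (-1.25).

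PSME3, a nuclear activator, was at 2.07, 2.14 and 1.19 FPKM in MII, 4.19, 6.15 and 2.77 FPKM at 4 cells and 5.31, 2.79 and 4.96 FPKM at 8 cells. Both embryo stages lay above MII, by 0.91 ± 0.32 (adjusted p = 0.055) and 0.92 ± 0.32 (adjusted p = 0.046), short of 2-fold on the log2(FPKM + 1) scale. At each stage 4 of 15 alternatives called it higher (1.0 to 1.27 and 1.01 to 1.30), a pseudocount of 0.1 and voom at both. PSMF1, an inhibitor of the core in vitro, was at 0.908, 2.68 and 1.27 FPKM in MII, 2.22, 4.67 and 4.23 FPKM at 4 cells and 4.32, 1.44 and 3.00 FPKM at 8 cells, with overlap and a difference of 0.57 ± 0.38 (adjusted p = 0.27) at the 8-cell stage. PSMF1 was called higher in 4-cell embryos by 4 of 15 alternatives (1.11 to 1.27).

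In 8-cell embryos injected with YTHDF2 siRNA, more members were called lower than higher against NC, and alpha subunits PSMA1 and PSMA2 lay furthest below. The subunit classes are small and were not tested against each other or against all genes. Of 46 members tested (not PSMB8, PSMB10 and PSMB11), 13 (28.3%) were called lower, against 15.3% of the 11004 genes tested, and 1 (2.17%) was called higher, against 9.48%. With an adjusted p under 0.05, 7 members were lower, against 5.92% of all genes, and 0 were higher, against 2.06%. With no minimum level, where 20357 genes were tested, the adjusted p of these 7 came to 0.17 to 0.19, although all 7 were still called by the unadjusted rule. Over the 10 alternatives the adjusted p came to 0.05 or more in 1 for PSMA1 and PSMA2, 2 for PSMC5, 5 for PSMG3, 6 for PSMB6 and PSMD6, and 8 for PSMC2. At an unadjusted p under 0.05 and any fold, 17 were lower, against 17.6% of all genes, and 1 was higher, against 11.9%. The median log2 fold change of the members was -0.44, against 0.01 for all tested genes, and 32 members were below 0 and 14 above. The libraries of 24 members lay below NC without overlap, against 30.7% of all genes, and those of 8 lay above, against 30.3%. Of the 13 calls, 12 were kept under both rescalings, and PSMB4 was lost with equal summed FPKM. The study of these same libraries had already listed the proteasome among the KEGG pathways enriched in its downregulated genes. The counts here are not independent of that result.

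Other transcripts also differed between the injection groups. The oocyte markers summed to 487 and 764 FPKM in NC and to 990 and 1923 FPKM in YTHDF2 siRNA libraries, and 5 of 7 tested (ZP2, ZP3, ZP4, MOS and KIT) were called higher, with an adjusted p under 0.05 for MOS (0.047). Each of these calls was lost on leaving out 1 library. Without NC library 2 this held for ZP3 (0.85), ZP4 (0.67), MOS (1.02) and KIT (1.01), and without YTHDF2 siRNA library 2 for ZP2 (0.78), ZP4 (0.44) and KIT (0.90). ZP4 also lost its call with no minimum level, median-ratio rescaling and a replicate block. The markers of cumulus and granulosa cells summed to 32.4 and 37.3 FPKM in NC and to 70.6 and 74.3 FPKM in YTHDF2 siRNA libraries, with HAS2 and TNFAIP6 called higher of 4 tested and FSHR at 0. The call of HAS2 was lost without NC library 1 (0.97), NC library 2 (1.03) or YTHDF2 siRNA library 2 (0.92) and by median ratios (0.99), and that of TNFAIP6 without NC library 1 (1.0), NC library 2 (1.18) or YTHDF2 siRNA library 1 (0.64). Sperm markers summed to 12.7 and 21.6 FPKM in NC and 5.13 and 27.0 FPKM in YTHDF2 siRNA libraries. The part of these transcripts in the proteasome results was not tested.

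**Figure D4:**
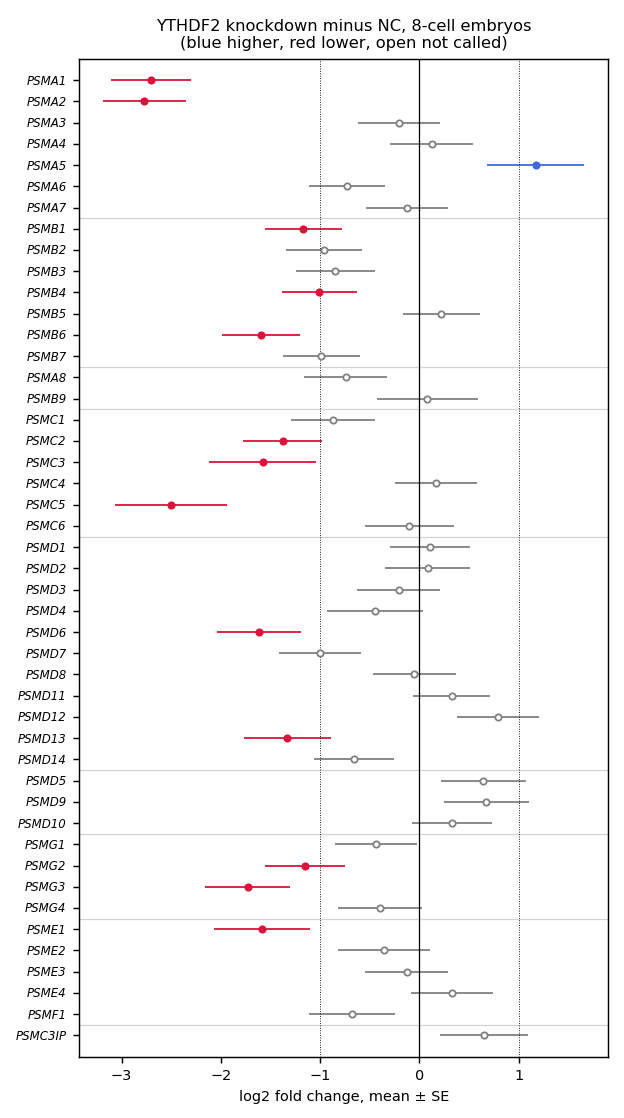
Log2 fold change ± SE of the 46 tested members between YTHDF2 siRNA and NC embryos, from limma on log2(FPKM + 1), with filled points for called genes and dotted lines at 2-fold. The 13 calls of lower level run from -2.77 for PSMA2 to -1.01 for PSMB4, and the single call of higher level, PSMA5, did not pass the adjusted threshold.

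Among the alpha subunits 2 of 7 were called lower and 1 higher. PSMA1 stood at 462 and 484 FPKM in NC and 95.6 and 53.9 FPKM in YTHDF2 siRNA libraries. PSMA2 stood at 90.9 and 69.0 FPKM in NC and 12.8 and 8.99 FPKM in YTHDF2 siRNA libraries. For both genes every NC library lay far above every YTHDF2 siRNA library. PSMA2 fell, with a log2 fold change of -2.77 ± 0.42 (adjusted p = 0.0032) and PSMA1 fell too, with -2.70 ± 0.40 (adjusted p = 0.0031), and each kept its unadjusted call in every alternative run.

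PSMA5 was at 333 and 127 FPKM in NC and 312 and 693 FPKM in YTHDF2 siRNA libraries, so the groups overlapped, with means of 230.1 ± 145 and 502 ± 269.5 FPKM. Its log2 fold change of 1.17 ± 0.49 passed the unadjusted rule alone (adjusted p = 0.13), and was 0.48 without NC library 2 and 0.59 without YTHDF2 siRNA library 2. PSMA7 stood at 211 and 141 FPKM in NC and 209 and 121 FPKM in YTHDF2 siRNA libraries, with a difference of -0.12 ± 0.41 (adjusted p = 0.87).

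Of the beta subunits 3 of 7 were called lower, and 6 of 7 had a log2 fold change below 0, with a median of -0.99. PSMB6, the caspase-like subunit, stood at 79.7 and 82.2 FPKM in NC and 26.2 and 26.1 FPKM in YTHDF2 siRNA libraries. The libraries of each group were close together and far from the other group. PSMB6 fell, with a log2 fold change of -1.59 ± 0.39 (adjusted p = 0.028) and kept its unadjusted call in every alternative run.

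PSMB7, the trypsin-like subunit, was at 91.7 and 85.9 FPKM in NC and 47.1 and 41.6 FPKM in YTHDF2 siRNA libraries, apart in all libraries, with a difference of -0.99 ± 0.39 (adjusted p = 0.12) that was called with a pseudocount of 0.1 (-1.0) and without YTHDF2 siRNA library 1 (-1.08). PSMB5, the chymotrypsin-like subunit, was at 96.3 and 76.2 FPKM in NC and 98.1 and 102 FPKM in YTHDF2 siRNA libraries, a difference of 0.22 ± 0.39 (adjusted p = 0.73). The catalytic subunits thus lay on both sides of 0, with values that were not tested against each other.

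The tissue-restricted subunits gave 0 calls. PSMA8 was at 4.36 and 4.09 FPKM in NC and 2.22 and 2.02 FPKM in YTHDF2 siRNA libraries, below NC without overlap, with a difference of -0.74 ± 0.42 (adjusted p = 0.24). PSMB9 was at 24.4 and 7.37 FPKM in NC and 12.7 and 16.2 FPKM in YTHDF2 siRNA libraries, with overlap (0.08 ± 0.51, adjusted p = 0.93). PSMB8 (0.580 and 0.830 FPKM in NC and 0.270 and 0.550 FPKM in YTHDF2 siRNA libraries) and PSMB10 (0.160 and 0.620 FPKM in NC and 0.250 and 0.350 FPKM in YTHDF2 siRNA libraries) stayed under 1 FPKM in every injected library.

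Of the 19S ATPases 3 of 6 were called lower, with a median log2 fold change of -1.13 over the 6. PSMC5 stood at 19.1 and 24.2 FPKM in NC and 6.98 and 0.980 FPKM in YTHDF2 siRNA libraries. Both YTHDF2 siRNA libraries lay below both NC libraries, and they differed widely from each other. PSMC5 fell, with a log2 fold change of -2.50 ± 0.56 (adjusted p = 0.019) and kept its unadjusted call in every alternative run.

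PSMC3 was at 8.85 and 6.41 FPKM in NC and 4.37 and 0.520 FPKM in YTHDF2 siRNA libraries, without overlap. Its call (-1.58 ± 0.54, adjusted p = 0.080) leaned on YTHDF2 siRNA library 2, without which the value was -0.67, and was also lost without NC library 1 (-1.37) and with no minimum level. PSMC2, the next of the called ATPases, stood at a mean of 82.7 ± 1.17 FPKM in NC and 31.3 ± 3.5 FPKM in YTHDF2 siRNA libraries.

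Of the 11 non-ATPase subunits 2 were called lower, and 4 of 11 had a log2 fold change above 0. PSMD6, a lid subunit, stood at 37.9 and 41.4 FPKM in NC and 15.6 and 9.61 FPKM in YTHDF2 siRNA libraries. All values of the latter were below NC. PSMD6 fell, with a log2 fold change of -1.61 ± 0.42 (adjusted p = 0.034) and kept its unadjusted call in every alternative run. PSMD14, the most abundant non-ATPase subunit in NC, was at 160.5 ± 57.2 FPKM in NC and 98.1 ± 6.23 FPKM in YTHDF2 siRNA libraries and was not called (-0.66 ± 0.40, adjusted p = 0.28).

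The chaperones of the core and those of the 19S particle lay on opposite sides of 0. All 4 genes of 20S assembly had a log2 fold change below 0, with a median of -0.79 and 2 calls, and all 3 of 19S assembly had one above 0, with a median of 0.64 and 0 calls. The 19S values were 0.33 to 0.67, with SE of 0.41 to 0.43 and adjusted p of 0.30 to 0.61. PSMG4 (-0.40 ± 0.42) overlapped between the groups and ranged from -0.80 to 0.0056 over the alternatives. The difference between these classes was not tested. PSMG3, which acts with PSMG4 in building the alpha ring, stood at 32.4 and 32.3 FPKM in NC and 12 and 6.79 FPKM in YTHDF2 siRNA libraries. The NC libraries were nearly equal and both lay above the YTHDF2 siRNA libraries. PSMG3 fell, with a log2 fold change of -1.73 ± 0.43 (adjusted p = 0.029) and kept its unadjusted call in every alternative run.

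Among the activators PSME1 was at 23.7 and 8.93 FPKM in NC and 4.53 and 3.93 FPKM in YTHDF2 siRNA libraries, without overlap. The NC libraries were far apart, and the call (-1.58 ± 0.48, adjusted p = 0.057) was lost without NC library 1 (-0.93). Its partner PSME2 was at 21.2 and 34.6 FPKM in NC and 30.0 and 14.5 FPKM in YTHDF2 siRNA libraries, with overlap (-0.36 ± 0.46, adjusted p = 0.62). PSME3 (7.87 and 7.23 against 6.85 and 6.77 FPKM), PSME4 (14.1 and 11.9 against 17.3 and 15.9 FPKM) and PSMF1 (5.95 and 4.14 against 2.22 and 3.33 FPKM, NC first in each) were not called, with log2 fold changes of -0.13, 0.33 and -0.68.

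The other 5 genes called lower, named here after their values were seen, were PSMC2 (-1.38), PSMD13 (-1.33), PSMB1 (-1.17), PSMG2 (-1.15) and PSMB4 (-1.01). Of these PSMC2 had an adjusted p under 0.05 (0.046), which came to 0.05 or more in 8 of 10 alternatives, while its unadjusted call was kept in each. Uncalled members that some alternatives called lower were PSMD7 (4 of 10, -1.01 to -1.22), PSMB2 (-1.10 without NC library 2 and -1.12 without YTHDF2 siRNA library 2), PSMA6 (-1.08 without NC library 1) and PSMC1 (-1.22 without YTHDF2 siRNA library 1). Leaving out single libraries ended the calls of PSMD13 (-1.16 without NC library 2 and -1.0 without YTHDF2 siRNA library 2), PSMB1 (-0.88 without NC library 2), PSMG2 (-1.13 without NC library 1 and -0.92 without YTHDF2 siRNA library 2) and PSMB4 (-0.97 to -1.05 without NC library 1, NC library 2 or YTHDF2 siRNA library 2). PSMC3IP, the recombination factor that shares the name pattern, was not called in any comparison and had a log2 fold change of 0.65 here.

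**Figure D5:**
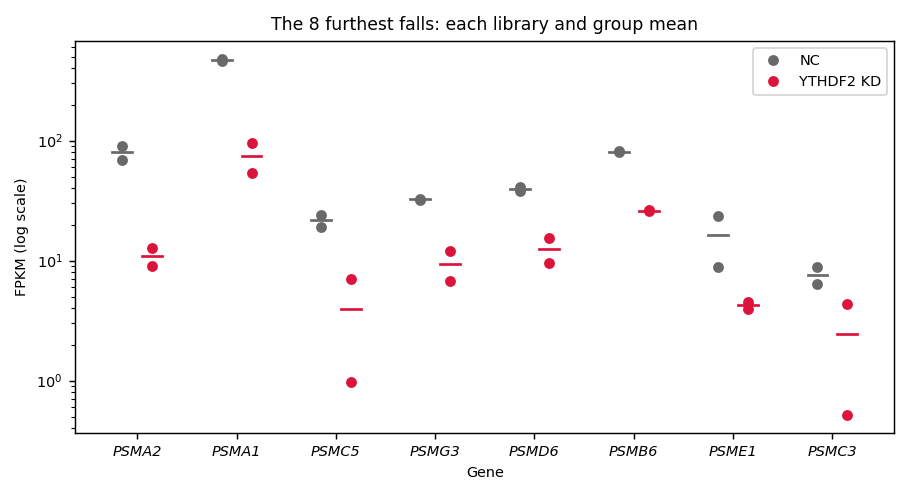
FPKM in each NC and YTHDF2 siRNA library (points) and group means (lines) on a log scale for the 8 called members with the most negative log2 fold change. In all 8 the YTHDF2 siRNA libraries lie below the NC libraries, and PSMC3, PSMC5 and PSME1 show a wide gap between libraries of a group.

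Genes that serve the proteasome from outside the pattern were followed as a list of 26, of which 25 are named in the tables. At the 4-cell stage against MII, 3 of 24 tested (12.5%) were called higher (the maturation factor POMP 1.16, the nuclear import factor AKIRIN2 1.22 and the 19S-bound thioredoxin TXNL1 1.28, as log2 fold change) and 1 (4.17%) lower (the unfoldase VCP -1.16), shares under the 16.7 and 6.06% of all genes. POMP and AKIRIN2 lost their calls under both rescalings and TXNL1 under equal summed FPKM. At the 8-cell stage TXNL1 (1.37) and the shuttle factor UBQLN1 (1.73) were called, both higher, which is 8.33% of the list against 19.8% of all genes. Between the 8-cell and 4-cell stages VCP (1.02, adjusted p = 0.15) was called higher, and ZFAND5 (-1.06), a proteasome-binding protein, was called lower, each 4.17% of the list against 4.55 and 4.28% of all genes. With equal summed FPKM the calls of TXNL1 at the 8-cell stage (0.98) and ZFAND5 (-0.94) were lost, and by median ratios that of VCP between embryo stages (0.94). Leaving out 1 library ended several of these calls. At the 4-cell stage this held for POMP (0.97 without 4-cell library 1) and VCP (-1.03 without 4-cell library 1 and -0.92 without library 3). Between embryo stages VCP was at 0.88 without 4-cell library 1, 0.77 without 4-cell library 3 and 0.62 without 8-cell library 1, and ZFAND5 at -0.93 without 4-cell library 1 and -0.97 without 8-cell library 2.

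In YTHDF2 siRNA embryos 4 of 25 list genes (16%) were called, all lower, close to the 15.3% of all genes, with adjusted p from 0.061 to 0.11. These were SEM1 (-1.28), a small lid subunit outside the name pattern, the proteasome-bound deubiquitinase USP14 (-1.29), UBQLN2 (-1.13), and UFD1 (-1.22), a partner of VCP. UFD1 kept its call without each library in turn. Without NC library 2 the calls of SEM1 (-0.73), USP14 (-0.96) and UBQLN2 (-0.73) were lost, without YTHDF2 siRNA library 2 those of SEM1 (-0.96) and UBQLN2 (-1.12), and without YTHDF2 siRNA library 1 that of UBQLN2 (-1.14). The list's median log2 fold change was 0.08, above the -0.44 of the members and near the 0.01 of all genes, and at the stages, on the deposited scale, it was 0.35, 0.22 and -0.07.

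Set beside the untreated 8-cell libraries, the NC libraries of the same stage held more of most members. Of 47 members with at least 1 FPKM on average over both groups, 31 were above all untreated 8-cell libraries in both NC libraries, against 36.1% of 10528 genes, and 4 were below, against 33%. PSMB1 averaged 295 FPKM in NC and 3.42 FPKM in untreated 8-cell embryos, PSMB3 109.9 and 1.01 FPKM, and PSMB6 81.0 and 0.526 FPKM. The genes below were PSMD5, PSMD9, PSMD12 and PSME4, of which PSMD5 averaged 15.7 FPKM in NC and 57.7 FPKM untreated. These libraries belong to separate experiments with separate normalization, so injection, study and processing cannot be told apart and no test was made.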

How the data were processed

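RNA-seq values of 13 libraries were used, 9 untreated and 4 injected. The authors used HISAT2 on the goat assembly ARS1, dropped reads without a unique location, took gene counts from HTSeq, and deposited FPKM of each library in 5 tables. All columns of values were used. FPKM of injected libraries is rounded to 2 decimals. Because only unique reads were kept, the level of a member with a near-identical copy in the genome is uncertain, and copies were not analysed here.

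Values were transformed to log2(FPKM + 1), and genes averaging 1 FPKM or more were tested in R 4.3.3 with limma 3.58.1 (lmFit, eBayes with trend), in 1 fit of 9 untreated and 1 of 4 injected libraries, so fold changes of low genes are understated. Called genes have an unadjusted p under 0.05 and over 2-fold change, the study's thresholds, and adjusted p are Benjamini-Hochberg values from limma over all tested genes. Whole fragments were recovered from the FPKM steps of untreated libraries, where 99.9% of 10626 genes gave a whole exon length within 0.05 bases. The members and lists were chosen with earlier results of these data known. Some genes of the pathway list are not reported here and were left out of its counts and medians. Named with full values are called members (where over 12 in 1 direction, the 8 furthest), tissue-restricted subunits with their counterparts, activators, and the highest and lowest member of a group. Alternatives were a pseudocount of 0.1, no minimum level, rescaling by median ratios or to equal summed FPKM, a replicate block, adjusted thresholds, each library left out, and, chosen after seeing the data, limma voom on the fragments and a crossed block. The fits were tested on simulated data. Python 3.11.15 with numpy 2.4.6, pandas 2.3.3 and matplotlib 3.10.9 did the rest. Gene positions and promoter motifs were not analysed here.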

Additional observations from a re-analysis of the deposited data

How the results depend on the processing

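Counts of called members depended on scale for the comparisons with MII. At the 4-cell stage the 5 higher became 9 with a pseudocount of 0.1 and with limma voom, 1 under median-ratio rescaling and under equal summed FPKM, and 3 with an adjusted p and over 2-fold change, and ranged from 3 (without MII library 1 or 4-cell library 3) to 9 (without MII library 2) when single libraries were left out. The 3 lower became 10 and 12 under the rescalings, and ranged from 3 to 8 (without MII library 3). At the 8-cell stage the 3 higher became 5 with a pseudocount of 0.1 and with voom, 0 under both rescalings and 1 with an adjusted p, and ranged from 1 (without MII library 1) to 4, while the 10 lower stayed within 1.5 times in every alternative. Between the embryo stages the 0 higher became 1 without 4-cell library 2 or 8-cell library 2, and the 4 lower became 2 with an adjusted p (any fold or over 2-fold) and ranged from 2 (without 4-cell library 3) to 6. In the knockdown the 1 higher became 0 with no minimum level, median-ratio rescaling, a replicate block, an adjusted p, or without NC library 2 or YTHDF2 siRNA library 2 (range 0 to 1), and the 13 lower became 7 with an adjusted p and ranged from 10 to 16. A lone library left in a group was assumed to vary like the other groups. The causes were not tested, other than that adjusted thresholds are stricter by construction.

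Deviations of same-numbered libraries correlated at -0.508 to 0.201 at the stages and at -0.152 in the injected groups. With 2 libraries per injected group, crossed numbers give the same value with its sign turned (0.152) by construction. With so few libraries per group these values cannot exclude that replicate numbers pair the libraries. With the number as a replicate block, 5 and 3, 2 and 11, and 0 and 4 members were higher and lower in the stage comparisons, and 0 and 13 in the knockdown. A crossed block gave 1 and 13 calls there.

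Of the members called with an adjusted p under 0.05, it came to 0.05 or more in at least 1 alternative for 4 of 6 at the 4-cell and 4 of 11 at the 8-cell stage against MII, 1 of 2 between embryo stages and 7 of 7 in the knockdown. Over 77 results for single genes and 1040 alternatives, 920 kept direction and side of the threshold, 63 lost the call, 38 gained one and 19 changed sign. Each sign change among these was in a comparison where the gene was not called, and PSMD3, not among them, turned from 0.23 to -1.0 (8-cell against MII) and from 0.06 to -1.17 (8-cell against 4-cell) without 8-cell library 1, called lower both times. At the 8-cell stage against MII, PSMB5 was -0.073 by median ratios and -0.12 with equal sums, and single libraries left out gave ranges of -0.12 (without MII library 1) to 0.74 for PSMB5, -0.62 to 0.31 (without MII library 2, and 0.042 without 8-cell library 1) for PSMB7, and -0.58 to 0.031 (without 8-cell library 3, and 0.021 without MII library 2) for PSME2. Between the embryo stages PSME3 was -0.055 by median ratios, and the ranges were -0.28 (without 8-cell library 1) to 0.46 for PSMB8, -0.22 (without 4-cell library 3, and -0.13 and -0.086 without 8-cell libraries 1 and 3) to 0.24 for PSME3, -0.31 to 0.0065 (without 8-cell library 1) for PSME4 and -0.55 to 0.013 (without 8-cell library 2) for PSMF1. In the knockdown they were -0.51 to 0.27 (without YTHDF2 siRNA library 2, and 0.16 without NC library 1) for PSMA7, -0.72 (without NC library 2, and -0.086 without YTHDF2 siRNA library 2) to 0.88 for PSMB9 and -0.86 to 0.14 (without YTHDF2 siRNA library 2) for PSME2. Depth limits PSMB10 (2 to 8 fragments per untreated library), PSMC3 (1 to 72) and PSMB6 (4 to 415).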

Other observations

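The summed level of the 17 constitutive genes of the 19S particle was 416 to 485 FPKM in MII on the deposited scale. It was 460 to 558 FPKM in 4-cell and 418 to 672 FPKM in 8-cell libraries, with overlap throughout. The summed core level of the 8-cell libraries lay below that of both earlier stages. PSMA4 and PSMA5 took 65.7 to 88.5% of the core sum in MII and 68.4 to 73.1% at 8 cells. The core medians overlapped (22.9 to 65.5 FPKM in MII and 17.5 to 27.6 FPKM at 8 cells). Sums were not compared under the rescalings. In injected libraries the 19S sum was 730 and 880 FPKM in NC and 669 and 620 FPKM in YTHDF2 siRNA embryos. The median exon length, as recovered from the FPKM steps, was 1250 bases for alpha, 988 for beta, 1534 for ATPase and 1908 for non-ATPase genes, against 2843 bases for all tested genes. Across the 46 tested members, which share libraries and are not independent replicates, Spearman's correlation of length with log2 fold change was 0.24 and 0.42 at the 4-cell and 8-cell stages against MII, 0.45 between them and 0.38 in the knockdown, against 0.10, 0.11, 0.04 and 0.13 over all genes.

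MII library 2 was the highest of its group for 30 of 46 members (65.2%), against 47.2% of all tested genes. YTHDF2 siRNA library 1 lay above library 2 for 33 of 46 members (71.7%), against 58.8% of all tested genes. The knockdown and stage changes, which share no libraries, correlated across 45 members at a Pearson's r of -0.05 (4-cell against MII), -0.04 (8-cell against MII) and 0.00 (8-cell against 4-cell).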
